A study of Mus musculus with 6 samples.

Results

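Malat1 and Neat1 are nearby genes for long noncoding RNAs of the cell nucleus, and both were in contact with JARID2 by the authors' lists of sites. Malat1 held 93 sites after retinoic acid and 122 in untreated cells, and Neat1 held 5 after retinoic acid and 25 in untreated cells. Sites were chosen by position alone, as every site on the minus strand of chromosome 19 (mm9) within chr19:5795600-5802700 for Malat1 and within chr19:5820000-5846000 for Neat1. Together they made up 98 of 5348 sites in the retinoic acid list and 147 of 23380 in the untreated list. Both groups were E14 mouse embryonic stem cells grown with serum and LIF. One group had received 2 µM retinoic acid for 24 h and the other was left untreated. All cells took up 4-thiouridine (500 µM, 2 h) and were crosslinked with 400 mJ/cm2 of light at 312 nm, and JARID2 was immunoprecipitated with its crosslinked RNA (PAR-CLIP). Each list was made from 3 libraries together, so there was 1 list per condition and no spread between replicates. No test between conditions was therefore possible, and the 95% intervals given here cover counting error only.

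JARID2 is a partner protein of the Polycomb repressive complex PRC2, which places a repressive methyl mark on histones. Malat1 is an abundant RNA of nuclear speckles, bodies rich in splicing factors, and its 3′ end is cut to release a small cytoplasmic RNA, mascRNA. Neat1 is the scaffold of paraspeckles, nuclear bodies that hold RNA-binding proteins, and is made as a short and a long form that share the 5′ end. Both genes lie on the minus strand, so the higher coordinate is the 5′ side, and positions are given here in bases from the higher edge of each window.

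The windows were named from their mm9 coordinates, without a gene annotation of that build. Neither list held a site on the plus strand of either window. Neither held a site on either strand in the 17.3 kb between the windows, or on the minus strand in the 10 kb beyond their outer edges. A count of 0 allows up to 0.0561% of the retinoic acid list and 0.0128% of the untreated list. Of all sites on the minus strand of chromosome 19, the members held 98 of 154 (63.6%) after retinoic acid and 147 of 500 (29.4%) in untreated cells. The lists report contacts and not the amount of RNA, so more contact per molecule and more molecules cannot be told apart.

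Malat1 was covered densely in both conditions. The retinoic acid list had 13.1 Malat1 sites per kb of window and the untreated list 17.2. Sites had a median length of 14 bases after retinoic acid (3 to 51) and 16 in untreated cells (1 to 74), against 12 over each whole list. They covered 1476 bases of the window after retinoic acid (20.8%) and 2258 bases in untreated cells (31.8%). The median gap between neighbouring sites was 32.5 bases after retinoic acid and 19 bases in untreated cells. The longest gap between neighbouring sites measured 426 bases after retinoic acid, from 1300 to 1725 bases, and 221 bases in untreated cells, from 1510 to 1730 bases. Both gaps thus ended at nearly the same place. The stretch from the last site to the 3′ edge of the 7101-base window was longer than either gap. That last site ended at 6604 bases after retinoic acid and at 6584 bases in untreated cells.

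Almost every Malat1 site carried a high score. The score is a whole number that the authors gave each site, and the sources used here do not say what it counts. Malat1 scores ran from 39 over a median of 248 to 1424 after retinoic acid, and from 55 over a median of 417 to 1937 in untreated cells. The medians of all other sites were 23 in the retinoic acid list and 17 in the untreated list. Scores of at least 100 were carried by 82 of the 93 sites (88.2%) after retinoic acid and by 116 of the 122 (95.1%) in untreated cells. The same held for 19.1% of all other sites after retinoic acid and 7.64% in untreated cells. Scores of at least 1000 were carried by 2 Malat1 sites after retinoic acid and 12 in untreated cells. The sum over Malat1 was 30964 after retinoic acid and 62008 in untreated cells, a ratio of 0.499, whereas the ratio over all sites outside the members was 0.717. Sites on the plus strand of chr17:39979968-39985776 alone held 1097010 of the outside sum of 4671815 after retinoic acid. In untreated cells they held 1286372 of 6517494. By share of score, most regions with at least 10 sites fell further than Malat1, as given below. No single site carried the sum, since the 5 highest held 17.3% of it after retinoic acid and 13.1% in untreated cells.

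**Figure D1:**
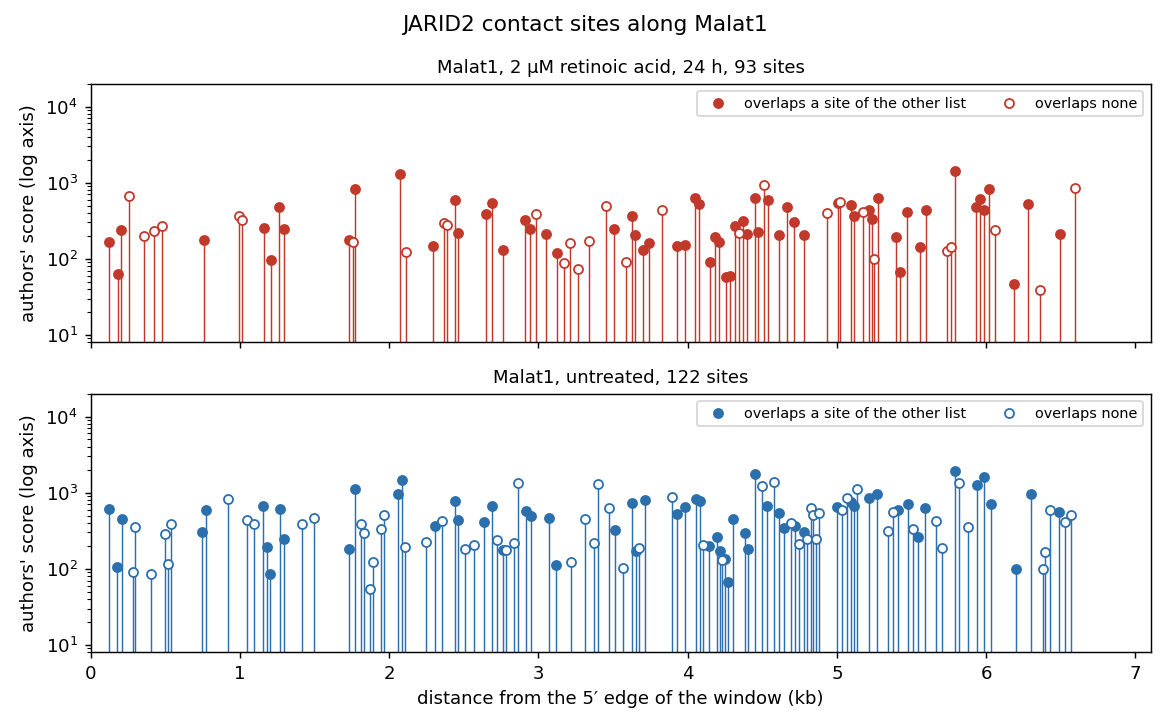
JARID2 contact sites along Malat1 by distance from the 5′ edge of the window (kb, x axis) and the authors' score (log axis, y axis), after retinoic acid above and in untreated cells below. Each stem is 1 site and filled circles overlap a site of the other list; the 93 and 122 sites run along nearly the whole window, and few score under 100.

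Contacts ran along nearly the full length of Malat1, with the most score between 4.26 and 6.39 kb from the 5′ edge. The first retinoic acid site began 114 bases from the 5′ edge and the last ended at 6604 bases. In untreated cells these positions were 86 and 6584 bases, so the 2 lists spanned almost the same stretch. The median position was 4051 bases after retinoic acid and 3803 bases in untreated cells. When the 7101-base window was split into 10 equal bins, each bin held a site in both lists, from 2 to 14 sites after retinoic acid and from 5 to 19 in untreated cells. The bins from 4.26 to 6.39 kb held 14, 14 and 11 retinoic acid sites and 19, 16 and 10 untreated sites. They carried 16.3%, 16.6% and 15.8% of the Malat1 score after retinoic acid, and 16.7%, 16.5% and 13.9% of it in untreated cells. The bin nearest the 5′ edge carried 5.96% after retinoic acid and 3.99% in untreated cells, and the one nearest the 3′ edge 3.43% after retinoic acid and 3.62% in untreated cells. Between the lists, Spearman's rho over the 10 bins was 0.75 for the number of sites and 0.95 for the summed score, as a description of bins that share 1 transcript and its base composition. In each bin the sum after retinoic acid was below that of untreated cells, by a ratio of 0.410 to 0.745.

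The highest-scored Malat1 site lay at the same place in both conditions. After retinoic acid it was chr19:5796906-5796912, 5788 bases from the 5′ edge, with a score of 1424. In untreated cells it was chr19:5796904-5796913, at 5787 bases, with a score of 1937. The longer untreated site contained the retinoic acid site whole.

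The next retinoic acid site by score, chr19:5800616-5800639 at 2061 bases, scored 1305. It overlapped 2 untreated sites scored 1448 and 970. The fifth, chr19:5796664-5796700 at 6000 bases, scored 832 and overlapped untreated sites scored 715 and 1624. The third and the fourth overlapped no untreated site, but lay 2 and 6 bases from untreated sites scored 1239 and 510. These were chr19:5798184-5798188 at 4512 bases with a score of 934, and chr19:5796096-5796109 at 6591 bases with a score of 849, which is also the last retinoic acid site towards the 3′ end.

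Among untreated sites, the second by score was chr19:5798220-5798278 at 4422 bases, which scored 1742 and overlapped retinoic acid sites scored 228 and 635. The third, chr19:5796687-5796741 at 5959 bases, scored 1624 and overlapped 3 retinoic acid sites scored 832, 437 and 606. The fourth was chr19:5800608-5800625, scored 1448, whose partner was the retinoic acid site scored 1305. The fifth, chr19:5798102-5798144 at 4556 bases with a score of 1400, overlapped none and was the highest untreated site without a partner. The nearest retinoic acid sites on its sides were chr19:5798077-5798095, scored 207, and chr19:5798157-5798171, scored 584. Near the 5′ edge, the first site was chr19:5802562-5802586 after retinoic acid, with a score of 168, and chr19:5802541-5802614 in untreated cells, with a score of 604. The last untreated site was chr19:5796116-5796144 with a score of 510. The highest scores of the lists lay outside Malat1, whose highest site ranked 295th among all 5348 retinoic acid sites and 367th among all 23380 untreated sites.

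Most Malat1 sites of the retinoic acid list overlapped an untreated site. At least 1 base was shared by 64 of 93 retinoic acid sites (68.8%, interval 58.4 to 78.0) and by 62 of 122 untreated sites (50.8%, 41.6 to 60.0). Sharing in these lists depends on the score, so Malat1 sites scored from 100 to below 1000 were set beside the other sites of that score on placed nuclear chromosomes. In the retinoic acid list, 55 of 80 such Malat1 sites (68.8%, 57.4 to 78.7) and 342 of 522 other sites (65.5%, 61.3 to 69.6) were shared, and the intervals overlapped. In the untreated list, 53 of 104 Malat1 sites (51.0%, 41.0 to 60.9) and 308 of 1074 other sites (28.7%, 26.0 to 31.5) were shared. The second pair of intervals did not overlap, though sites of 1 transcript are not independent and the intervals are too narrow for that reason.

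Whether the dense cover of Malat1 adds to that count was not tested. Between the first and the last site, untreated sites covered 34.6% of all bases. Of the bases in retinoic acid sites, 749 of 1476 (50.7%) also lay in an untreated site. Exact edges were not shared, as 0 of 93 retinoic acid sites had the start and end of an untreated site. Among sites scored from 100 to below 1000, edges were equal for 0 of 80 Malat1 retinoic acid sites and 17 of 522 other sites (3.26%). For untreated sites these counts were 0 of 104 and 12 of 1074 (1.12%). The Malat1 intervals ran up to 4.51% and 3.48%, so they include the shares of other sites. With at least 50% of both sites required, 28 of 80 Malat1 retinoic acid sites scored from 100 to below 1000 were shared (35.0%, 24.7 to 46.5) and 233 of 522 other sites (44.6%, 40.3 to 49.0). For untreated sites the same counts were 26 of 104 (25.0%, 17.0 to 34.4) and 203 of 1074 (18.9%, 16.6 to 21.4). Under that stricter rule the intervals of Malat1 and of other sites overlapped in both lists, which does not show that the shares were equal. The 29 retinoic acid sites that overlapped none lay at most 52 bases from an untreated site, and 24 of them at most 25 bases. Of retinoic acid sites scored from 100 to below 1000, 80 of 80 on Malat1 (95.5 to 100) and 430 of 522 others (82.4%, 78.8 to 85.5) lay within 100 bases. For untreated sites these were 101 of 104 (97.1%, 91.8 to 99.4) and 510 of 1074 (47.5%, 44.5 to 50.5). The intervals were apart in both lists, though sites on Malat1 lie densely and are not independent.

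**Figure D2:**
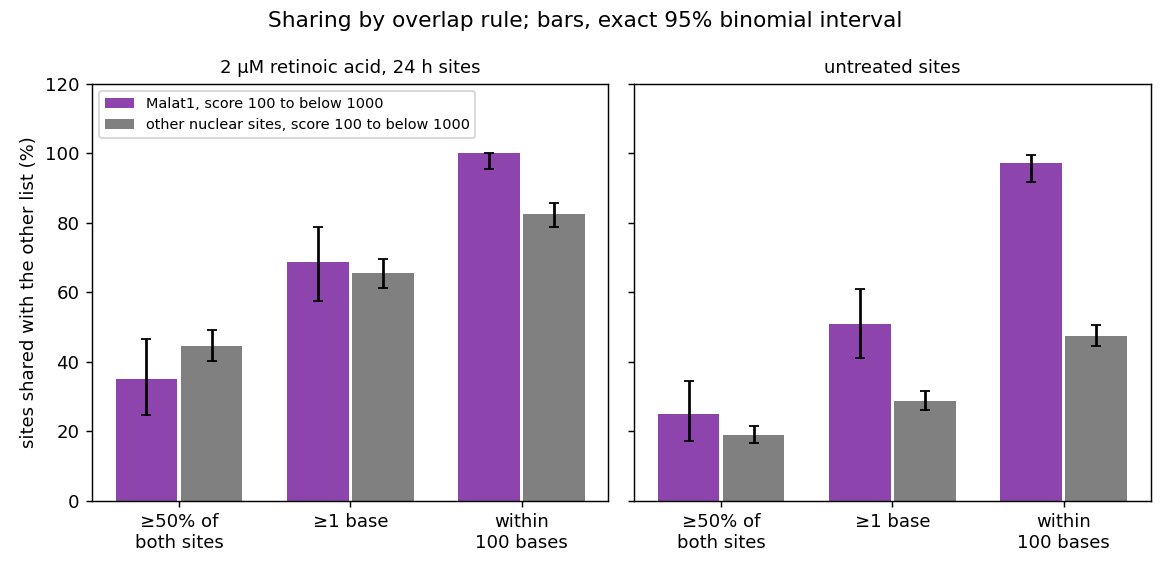
Percent of sites scored from 100 to below 1000 that are shared with the other list (y axis) under 3 overlap rules (x axis), for Malat1 and for other sites on placed nuclear chromosomes, with retinoic acid sites on the left and untreated sites on the right. Error bars are exact 95% binomial intervals; with at least 1 base required, Malat1 stands at 68.8% beside 65.5% of other retinoic acid sites, and at 51.0% beside 28.7% of other untreated sites.

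Where sites of both lists overlapped on Malat1, the retinoic acid site mostly had the lower score. The 64 and 62 sites formed 70 overlapping pairs, and the retinoic acid score was lower in 61 (87.1%) and higher in 9. The median ratio of retinoic acid over untreated score was 0.584 (interquartile range 0.392 to 0.818). The other nuclear pairs numbered 1240, of which 58.4% had the lower score after retinoic acid, with a median ratio of 0.823 (0.5 to 1.43). With both scores at least 100, the retinoic acid score was lower in 87.1% of 62 Malat1 pairs and in 67.0% of 558 other nuclear pairs, and the median ratio was 0.591 on Malat1 and 0.718 elsewhere. A site with several partners counts in several pairs, and some long untreated sites met several shorter retinoic acid sites. With at least 50% of both sites required, the median ratio was 0.687 over 29 Malat1 pairs. That rule was not applied to the score ratios of pairs elsewhere. Ratios within Malat1 ran from 0.112, for a retinoic acid score of 66 and an untreated score of 587 at 5421 bases, to 1.41, for a retinoic acid score of 484 and an untreated score of 344 at 4638 bases. The untreated site scored 587 was 28 bases long and also overlapped a retinoic acid site scored 193. Spearman's rho between the scores of the Malat1 pairs was 0.74, as a description of pairs on 1 transcript.

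**Figure D3:**
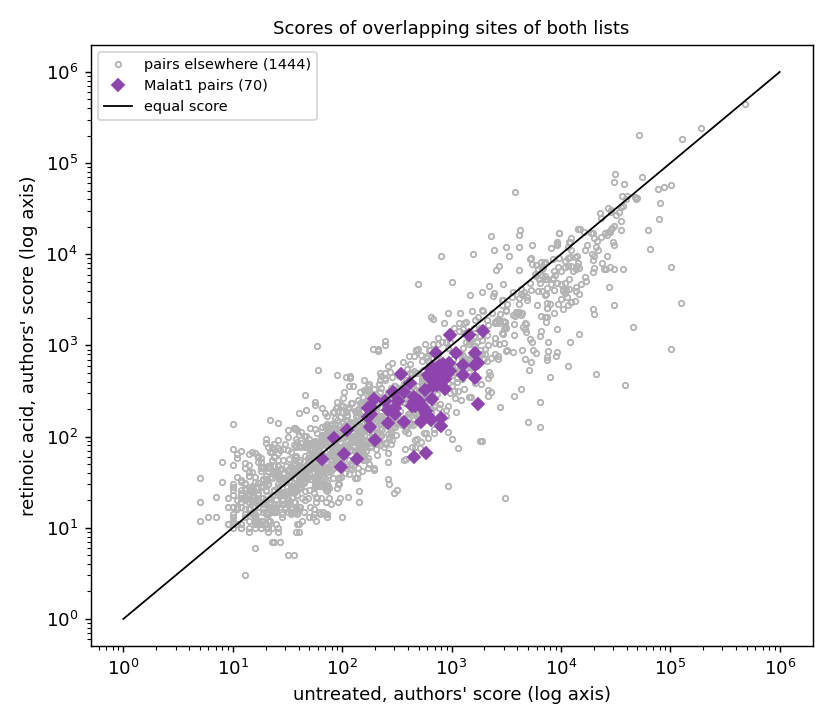
Authors' score of the retinoic acid site (y axis) against that of the overlapping untreated site (x axis), both on log axes, for 70 Malat1 pairs and 1444 pairs elsewhere, mitochondrial and unplaced ones included. The line marks equal scores; 61 of the 70 Malat1 pairs lie below it.

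Malat1 took up a larger share of the retinoic acid list by number of sites, but not by score. It held 1.74% of the sites after retinoic acid (1.41 to 2.13) and 0.522% in untreated cells (0.434 to 0.623). The log2 ratio of the shares was 1.74 ± 0.20 (SE from counting error; interval 1.35 to 2.12), a fold of 3.33. The larger share came with fewer Malat1 sites, 93 against 122, as the whole list held 5348 sites against 23380. For comparison, neighbouring sites of either list that lay at most 10 kb apart on a strand were grouped into regions. Of the 489 regions with at least 10 sites, 52 (10.6%) had a share at least 2-fold higher after retinoic acid, and Malat1 ranked 18th of the 489 by fold. Among sites scored at least 100, Malat1 held 82 of 1086 after retinoic acid (7.55%) and 116 of 1891 in untreated cells (6.13%), a log2 ratio of 0.30 with an interval of -0.09 to 0.69. At that score, 6.45% of 31 regions were at least 2-fold higher. By summed score, Malat1 carried 0.658% after retinoic acid and 0.942% in untreated cells, which turned the direction to a log2 ratio of -0.52 (fold 0.699). By that measure 78.3% of the 489 regions were at least 2-fold lower after retinoic acid, a fold that Malat1 did not reach. With the 10 highest-scored sites of each list left out, the shares of score were 1.01% after retinoic acid and 1.25% in untreated cells, a log2 ratio of -0.32.

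**Figure D4:**
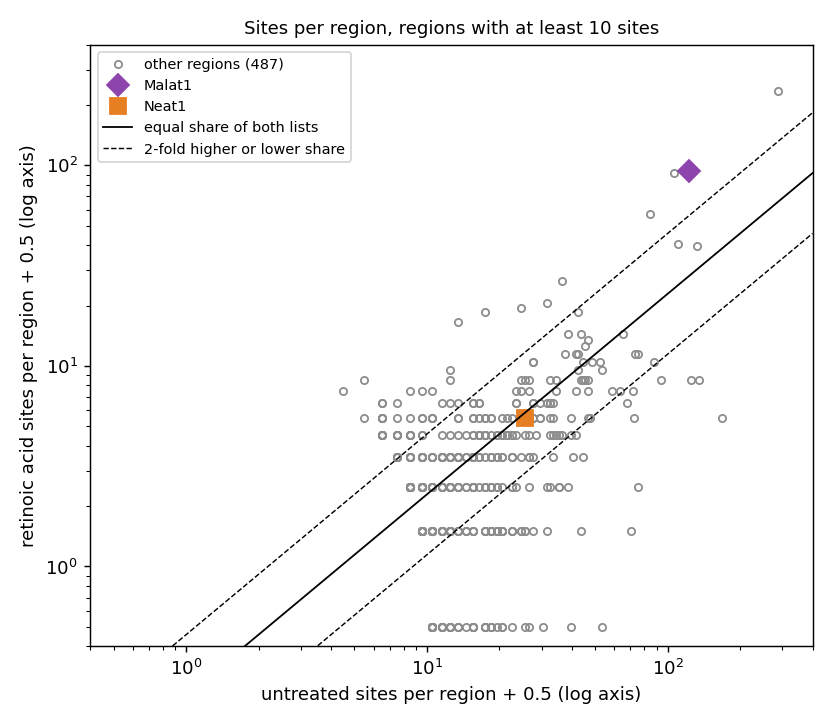
Retinoic acid sites (y axis) against untreated sites (x axis) for each of 489 regions with at least 10 sites, both plus 0.5 on log axes. The solid line marks an equal share of both lists and the dashed lines a 2-fold higher or lower share; Malat1 (93 and 122 sites) lies above the upper dashed line and Neat1 (5 and 25 sites) close to the solid line.

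The other 3 regions with the most retinoic acid sites also had a larger share of that list, while their sharing and scores varied. They were picked by their retinoic acid sites, which favours a larger share. By number of retinoic acid sites Malat1 ranked 2nd among all regions, between the plus strand of the mitochondrial chromosome with 235 retinoic acid and 286 untreated sites and the plus strand of chr17:39979968-39985776 with 91 retinoic acid and 106 untreated sites. The fourth was the minus strand of chr1:24618469-24623003 with 57 retinoic acid and 84 untreated sites. Untreated density was 18.7 sites per kb on Malat1 between its first and last site, against 18.6, 18.2 and 18.5 on those 3 regions in that order. The fold of the shares was 3.33 on Malat1, against 3.59, 3.75 and 2.97. The share of retinoic acid sites that overlapped an untreated one was 68.8% on Malat1, against 69.8%, 91.2% and 64.9%. The ratio of summed scores was 0.499 on Malat1, against 0.618, 0.853 and 0.387. The median score was 248 on Malat1 after retinoic acid and 417 in untreated cells, against 3633 after retinoic acid and 6357 in untreated cells on the chromosome 17 region. By number of untreated sites Malat1 ranked 6th. Just above it, the minus strand of chr19:4758489-4811440 held 8 retinoic acid and 125 untreated sites. Just below it, the minus strand of the mitochondrial chromosome held 40 and 110.

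Beside Malat1, Neat1 had few contacts, and they scored lower. Its 5 retinoic acid sites scored 17 to 72 with a median of 32, and its 25 untreated sites scored 10 to 96 with a median of 24. None reached a score of 100 in either list, but both medians lay above those of all sites outside the members, 23 after retinoic acid and 17 in untreated cells. Among all 9482 regions, Neat1 ranked 83rd by number of retinoic acid sites and 96th by number of untreated sites, ties included. Sites numbered 0.192 per kb of window after retinoic acid and 0.962 in untreated cells, and covered 60 bases after retinoic acid and 397 in untreated cells. The summed score per kb after retinoic acid was 7.04 on Neat1 and 4361 on Malat1. In untreated cells it was 28.5 on Neat1 and 8732 on Malat1. Any comparison of these RNAs includes how much of each RNA the cells held, which was not measured here.

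The 5 retinoic acid sites on Neat1 lay in the part nearest the 5′ edge. The highest was chr19:5843329-5843339, 2661 bases from the edge, with a score of 72. The first, chr19:5845162-5845170 at 830 bases, scored 38, and chr19:5844645-5844655 at 1345 bases scored 32. The last were chr19:5842996-5843011 at 2989 bases with a score of 17 and chr19:5840897-5840909 at 5091 bases with a score of 24.

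Most untreated Neat1 sites lay in the same stretch. In the first 5 kb from the edge were 4 of 5 retinoic acid sites and 20 of 25 untreated ones, 80.0% of the Neat1 sites in each list. The 5′ end is the part that the short and the long form of Neat1 have in common, but where the short form ends was not placed in mm9 coordinates here. The first untreated site was chr19:5845180-5845222 at 778 bases with a score of 26. Beyond 5 kb, 2 more untreated sites were followed by a stretch of 6174 bases with no site, from 6547 to 12720 bases. The highest untreated score, 96, belonged to an isolated site beyond that stretch, chr19:5833269-5833279 at 12721 bases. It was followed by 2 sites scored 12 and 10, the last of them chr19:5828125-5828133 at 17867 bases. The other high scores lay between 2125 and 2815 bases. They were 66 at chr19:5843176-5843185, 64 at chr19:5843861-5843875, 43 at chr19:5843622-5843632 and 41 at chr19:5843201-5843229.

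**Figure D5:**
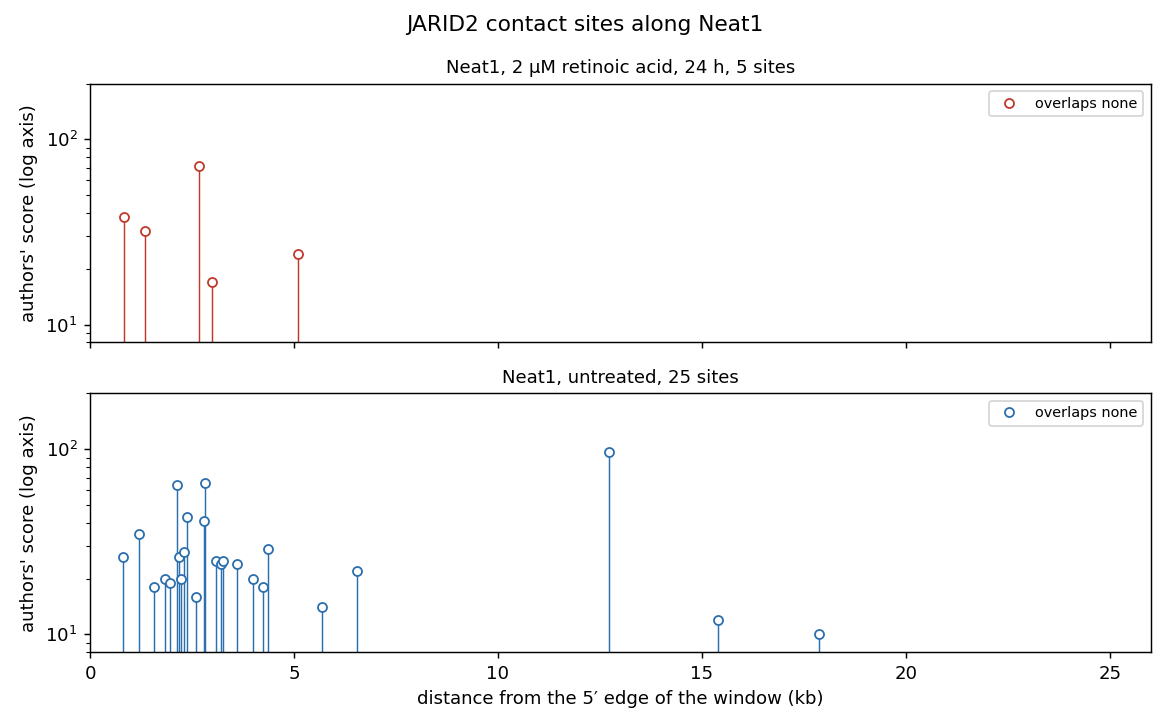
JARID2 contact sites along Neat1 by distance from the 5′ edge of the window (kb, x axis) and the authors' score (log axis, y axis), after retinoic acid above and in untreated cells below. Each stem is 1 site; 4 of 5 and 20 of 25 sites lie in the first 5 kb, and no circle is filled, since none overlaps a site of the other list.

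No Neat1 site was shared between the lists. Of the retinoic acid sites 0 of 5 and of the untreated sites 0 of 25 overlapped a site of the other list, with intervals up to 52.2% and 13.7%. Among other nuclear sites scored from 10 to below 100, 15.3% of 3938 retinoic acid sites and 3.03% of 19421 untreated sites were shared, and both values lay within the intervals of Neat1. The retinoic acid sites were 9, 58, 81, 133 and 567 bases away from the nearest untreated site, so 3 of 5 lay within 100 bases (60.0%, 14.7 to 94.7). Of the untreated sites, 4 of 25 lay within 100 bases of a retinoic acid site (16.0%, 4.54 to 36.1). For other nuclear sites scored from 10 to below 100 these shares were 28.6% and 7.36%, both within the intervals of Neat1. Of 69 other regions with 20 to 30 untreated sites, 28 also held retinoic acid sites of which none was shared, and 6 held no retinoic acid site. These regions had a median of 4 retinoic acid sites (0 to 19), where Neat1 had 5.

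By share of the list, Neat1 did not differ between conditions beyond counting error. It held 0.0935% of the sites after retinoic acid (0.0304 to 0.218) and 0.107% in untreated cells (0.0692 to 0.158), a log2 ratio of -0.19 ± 0.71 (SE from counting error; interval -1.58 to 1.19). That interval includes changes of more than 2-fold both ways. A share at least 2-fold lower after retinoic acid was seen in 36.4% of the 489 regions. Its summed score was 183 after retinoic acid and 741 in untreated cells, which made up 0.00389% of all score after retinoic acid and 0.0113% in untreated cells, a log2 ratio of -1.53. A share of score at least 2-fold lower was seen in 78.3% of the 489 regions.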

How the data were processed

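JARID2 PAR-CLIP was done on 3 libraries of retinoic acid-treated and 3 of untreated E14 cells. The authors deposited 1 list of sites per condition, whose unit is a whole-number score per site. Bowtie and mm9 are named per the submitters' processing notes; their role, the site caller, read depth and the meaning of the score are not stated in the sources used here. Shares were taken of the number of sites in each list, which need not follow depth. The ratio of retinoic acid over untreated was 0.229 for the length of the lists and 0.715 for their summed score. All sites were kept, and coordinates are written from 1. Shares have exact (Clopper-Pearson) 95% binomial intervals; log2 ratios of shares have SEs from the counts. Regions group sites of either list at most 10 kb apart on a strand. The 1-base overlap count was checked on 2000 untreated sites, of which 600 were shifted by 1 base and the rest moved far away. It had 0 differences from direct comparison. The other overlap rules were not checked in this way. Singly named sites are the 5 highest-scored per list and RNA, the highest unshared, the first and the last; the other positions were chosen after their values were seen. The RNAs and measures were chosen with earlier results of these data known. A list of genes for nuclear body proteins was not run, as no mm9 annotation was used, and site sequences are not shown for the same reason. Python 3.11.15 was used with pandas 2.3.3, scipy 1.17.1, matplotlib 3.10.9 and numpy 2.4.6.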

Additional observations from a re-analysis of the deposited data

How the results depend on the processing

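The log2 ratio of Malat1 shares, 1.74, lay outside its interval under 6 alternatives, and the cause was not tested. It was 0.30 at scores of at least 100, -1.98 at scores of at least 1000 (from 2 and 12 sites), 2.56 with sites up to 50 bases apart joined, 1.19 with the untreated minimum raised to 13.9, -0.52 by summed score and -0.32 by summed score without the 10 highest-scored sites. The raised minimum and the last of these were chosen after seeing the data. Malat1 sites numbered 2 and 12 (retinoic acid, then untreated) at scores of at least 1000, and 33 and 25 when joined; Neat1 had 0 and 0 at scores of at least 100 and of at least 1000. Shared Malat1 sites were 31.2% and 23.8% with 50% of both sites required, 0% and 0% with equal edges, 100% and 97.5% within 100 bases, and 100% and 16.7% at scores of at least 1000. For the 50%, equal-edge and 100-base rules, the shares of other sites scored from 100 to below 1000 are given above. Shared Neat1 sites were 60% and 16% within 100 bases, beside 28.6% and 7.36% of other nuclear sites scored from 10 to below 100. With 10 bins, 3 tied for the most Malat1 retinoic acid sites, the first with its midpoint at 3.91 kb; with 5 bins the fullest had its midpoint at 4.97 kb, a move that the choice among the tied bins can give. The other 61 of 86 alternatives kept the value within its interval, interquartile range or 1.5-fold range, or, for the fullest bin, within the width of 1 of 10 bins. By that last rule a move of the fullest untreated Neat1 bin from a midpoint of 1.30 kb to 2.60 kb counts as kept. No pair of Malat1 sites had equal edges and no Neat1 site scored 100, so those settings gave no value for the score ratio or for Neat1 shares. No paired analysis was possible because each list pools its libraries, and for the same reason no replicate could be left out.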

Other observations

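Each site carries a name made of a group number and a site number, which the sources used here do not explain. Within every chromosome and strand the group numbers ran in coordinate order, at 100% of 5302 steps after retinoic acid and 100% of 23326 steps in untreated cells. The highest number was 221592 after retinoic acid and 247324 in untreated cells, a ratio of 0.896, while the ratio of the list lengths was 0.229. Numbers with a listed site made up 2.12% after retinoic acid and 8.68% in untreated cells.

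On Malat1 the numbers spanned 4 in each list. After retinoic acid all 4 held sites, with 5, 64, 17 and 7 sites from the 3′ to the 5′ side. In untreated cells 3 of the 4 did, with 8, 105 and 9 sites. A change of number fell between 6063 and 6177 bases from the 5′ edge after retinoic acid and between 6046 and 6196 bases in untreated cells, and another between 484 and 745 bases and between 545 and 740 bases. The change between 2466 and 2637 bases was seen after retinoic acid only, where untreated sites ran through under 1 number. On Neat1 the numbers spanned 31 after retinoic acid, of which 5 held a site (16.1%), and 70 in untreated cells, of which 22 did (31.4%).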
